A study of Temora longicornis with 12 samples.

Results

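The 80 genes with the most assembled isoforms were described in Temora longicornis, a small planktonic crustacean of coastal seas, isoform by isoform and library by library. A gene here is a Trinity gene, that is, a group of assembled transcripts that share an identifier up to the isoform number. Of 35381 genes in the table, 26378 had a summed mean level of 1 CPM or more (CPM, counts scaled by the library total, here without the single most abundant transcript). From these the 80 with the most isoforms were taken, and they held 410 of the 44985 assembled transcripts. TRINITY_DN190753_c1_g4 had 8 isoforms, 2 genes had 7, 13 genes had 6, 54 genes had 5 and 10 genes had 4. The last 10 were tied with 219 other genes of 4 isoforms and were taken by identifier order. The rule used no measured difference between groups, though it was set with earlier results of these data known.

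Whole adults were exposed for 120 h in dark, aerated vessels, in 4 groups of which 3 replicates each were sequenced. Animals of the recovery group were warmed to 17 °C during the first 24 h, held there, and moved to 14 °C for their final 24 h. Those of the sustained group were warmed alike and never moved back. Those of the acute group lived at 14 °C until a final 24 h at 17 °C. Control animals remained at 14 °C. The labels do not say how many animals gave a library. In whole animals, fewer cells of a type and less RNA per cell cannot be told apart.

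An isoform is one of several transcripts of a gene, which in animals arise mainly from alternative splicing, alternative start sites or alternative polyadenylation. In arthropods the genes known for many splice forms include muscle proteins, ion channels and cell adhesion molecules. In an assembly made without a genome, allelic variants, close paralogs and fragments of one transcript can also be listed as isoforms. The table pairs none of the identifiers with a gene name, so no function is given for any of the 80 genes, and the kinds of isoform were not told apart.

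The isoform numbers in the identifiers were incomplete in most of these genes. The highest number reached a median of 8 and at most 16 per gene, and 243 of 653 numbers up to the highest had no entry in the table. A full run of numbers was present in 8 genes, and 72 genes lacked at least 1 number. Shares below are therefore shares among the listed isoforms. They are shares of counts, not corrected for transcript length, and reads that fit several isoforms of a gene may have been split or dropped in counting, so a single isoform is uncertain in every one of these genes.

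The largest library total was 32504862 counts (recovery replicate 2) and the smallest 11582848 (control replicate 2). The most abundant transcript took from 0.0039% (control replicate 3) to 53.1% (recovery replicate 1) of a library's total. Without it the largest total was 23838612 (sustained replicate 1) and the smallest 8659487 (control replicate 2). The 80 genes took between 0.156% and 0.214% of the counts outside the most abundant transcript. Their mean level had a median of 11.3 CPM and ran from 2.27 to 503 CPM. The median gene count in a library was 188, and 21 genes had fewer than 50 counts in at least 1 library. Low counts limit the precision of shares, and the intervals and limits given for single libraries cover counting error only.

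Counts were spread over several isoforms in most of the 80 genes. The leading isoform held a median of 43.1% of its gene's counts, with a range over genes from 21.0% to 93.5%. It held 50% or more in 25 genes and 80% or more in 4. The effective number of isoforms, which equals the number listed when all have the same share and 1 when a single isoform holds all counts, had a median of 3.11. Among the 6967 other genes with 2 or more isoforms and at least 1 CPM the median was 1.67, and among the 219 others with 4 isoforms it was 2.61. The larger number of listed isoforms is what the 80 genes were chosen for, so this difference was not tested. Of the 410 isoforms, 152 had a mean share of 20% or more and 51 had a mean share under 5%.

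**Figure D1:**
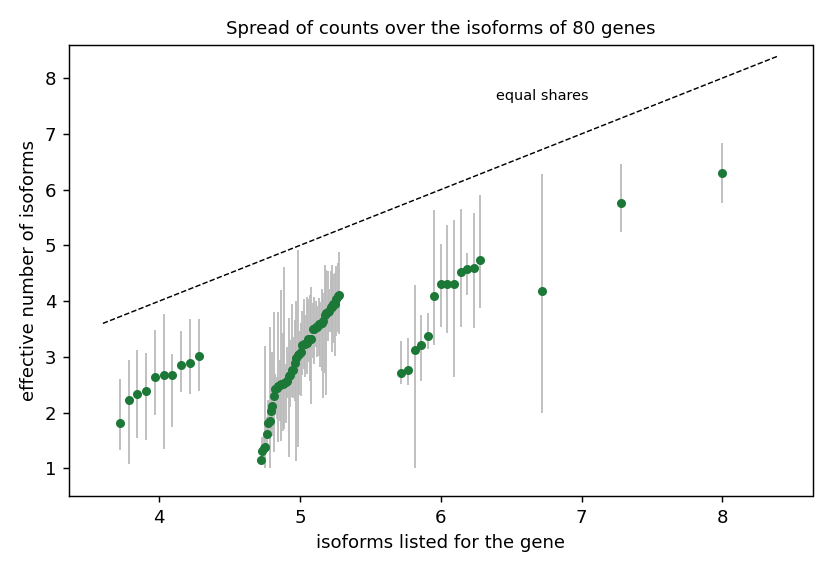
Effective number of isoforms (vertical axis) against the number of isoforms listed (horizontal axis) in each of the 80 genes. Points are means over 12 libraries, grey bars span the lowest to the highest library, points of the same number are spread sideways by rank, and the dashed line marks equal shares. All 80 means lie below the line, from 1.14 to 6.30.

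The gene with the most isoforms, TRINITY_DN190753_c1_g4, also had the highest effective number, a measure that cannot exceed the number of isoforms listed. In TRINITY_DN190753_c1_g4 the effective number was 6.35 ± 0.204 in recovery, 5.97 ± 0.323 in sustained, 6.53 ± 0.339 in acute and 6.35 ± 0.131 in control libraries (SD, n = 3 each). Its leading isoform i7 held 21.0%, 23.0% and 15.8% in recovery, 24.6%, 24.2% and 22.9% in sustained, 20.4%, 13.7% and 21.4% in acute and 21.5%, 22.0% and 21.3% in control libraries. Isoform i7 led in 9 libraries and i3 in the other 3, which were recovery replicate 3 and acute replicates 1 and 2. The gene total was the steadiest of the 80 genes, at 49.4 to 62.9 CPM over the 12 libraries. Single isoforms were less steady. The share of i1 ran from 4.37% to 16.2%, with overlap between all groups, and that of i5 from 5.64% to 18.9%, with the acute values of 11.1% to 17.7% above the 3 sustained values, the lowest of which was 7.98%.

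TRINITY_DN184012_c0_g5, with 7 isoforms, had an effective number between 5.23 and 6.46. Isoform i1 held 21.8% ± 1.67 in recovery, 24.0% ± 3.79 in sustained, 22.9% ± 4.24 in acute and 25.4% ± 1.68 in control libraries, with i2 and i8 next. Isoform i2 led in sustained replicate 2, i8 in acute replicate 1, and i1 in the other 10 libraries, in control replicate 1 with the same count as i8. TRINITY_DN194224_c29_g8, with 6 isoforms, had the third highest effective number, 4.74, and i1 held 18.8% to 42.7% of its counts.

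At the other end, TRINITY_DN168545_c1_g2 had 5 isoforms of which i3 took nearly all counts. The share of i3 was 95.7%, 94.0% and 90.5% in recovery, 93.5%, 92.0% and 92.5% in sustained, 93.7%, 95.3% and 93.9% in acute and 95.1%, 90.7% and 94.6% in control libraries. The recovery and control values spread over nearly the whole range, and the 3 acute values lay above the 3 sustained values. This gene had the lowest effective number, 1.14, and ranked second by level, at 98.4 CPM. TRINITY_DN186635_c0_g10, at 1.31, and TRINITY_DN183316_c0_g1, at 1.36, came next, with i3 at 79.0% to 93.9% and i7 at 77.7% to 91.2%.

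The gene with the highest level, TRINITY_DN173890_c3_g3 at 503 CPM, had steady shares while its total varied between 256 and 656 CPM. Its isoform i6 held 55.8% ± 1.04 in recovery, 54.2% ± 3.00 in sustained, 53.1% ± 2.44 in acute libraries (SD, n = 3 each), and 55.1%, 45.9% and 55.1% in control libraries. The lowest share, that of TRINITY_DN173890_c3_g3_i6 in control replicate 2, had a 95% Wilson interval of 44.5% to 47.2%, and the other 11 libraries lay between 50.3% and 57.4%. Isoform i2 was second everywhere, at 22.9% to 28.9%. The standard deviation of the log2 ratio of i6 to i2 over libraries was 0.158, the smallest of the 80 genes, against 0.406 for the log2 total.

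TRINITY_DN171415_c2_g7, with 6 isoforms at 30.6 CPM, was led by i3 in every library, at 48.4% to 60.2%. The remaining genes among the 6 with the highest level were TRINITY_DN190630_c0_g9, TRINITY_DN190880_c0_g1 and TRINITY_DN181155_c2_g10, at 71.9, 62.0 and 51.3 CPM. Each was led by the same isoform in all libraries but 1 or 2. In TRINITY_DN190630_c0_g9 the leading isoform i6 held 30.5% to 52.1%. In TRINITY_DN190880_c0_g1 i4 held 26.1% to 40.1%, and in TRINITY_DN181155_c2_g10 i4 held 26.9% to 41.9%. Every pair of groups overlapped in the leading share of each of the 3 genes.

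**Figure D2:**
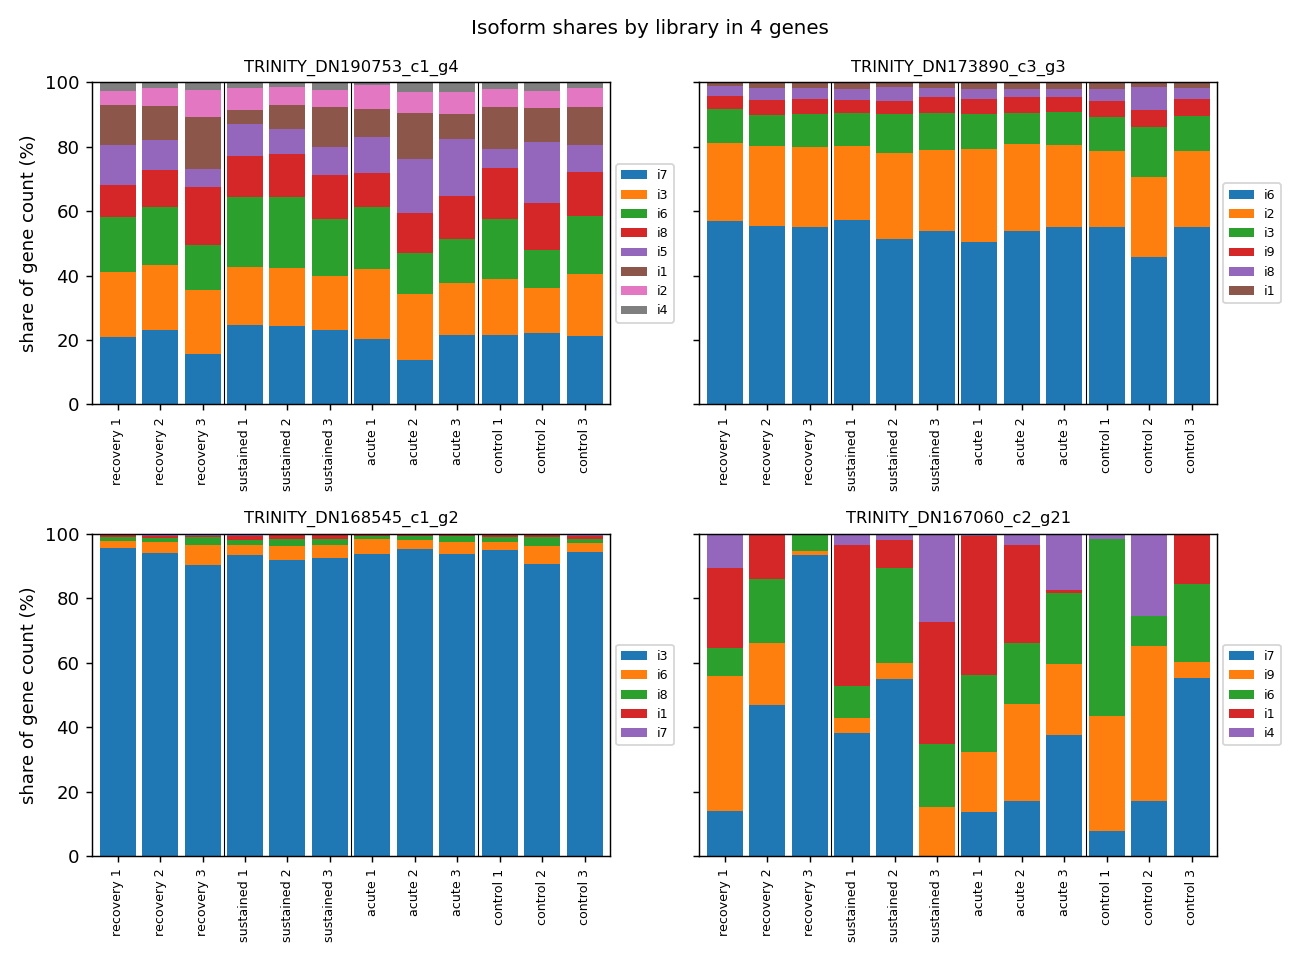
Share of the gene count (vertical axis, percent) held by each isoform in each library (horizontal axis, recovery, sustained, acute and control, 3 libraries each) in 4 of the 80 genes; colours mark isoforms from the largest to the smallest mean share. TRINITY_DN190753_c1_g4 is spread over 8 isoforms, TRINITY_DN173890_c3_g3 and TRINITY_DN168545_c1_g2 keep the same leading isoform in all 12 libraries, and TRINITY_DN167060_c2_g21 has 4 different leading isoforms.

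Most of the 80 genes did not keep one leading isoform across the libraries. The same isoform led in all 12 libraries in 23 genes (28.75%), whereas 28 genes had 2 leading isoforms, 18 had 3 and 11 had 4 or more. Among the 219 other genes with 4 isoforms, 44.7% kept one leading isoform, and among all 6967 others 56.6% did. By group means, 55 of the 80 genes had the same leading isoform in recovery, sustained, acute and control, and 25 did not.

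TRINITY_DN167060_c2_g21 had 66 to 808 counts per library and one of the largest differences among replicates. Its isoform i7 held 14.0%, 47.1% and 93.7% in recovery, 38.3%, 55.1% and 0% in sustained, 13.8%, 17.2% and 37.8% in acute and 7.66%, 17.0% and 55.2% in control libraries. The count of 0 in sustained replicate 3 came from a gene count of 66, which allows a share of up to 4.55% for TRINITY_DN167060_c2_g21_i7. Isoform i1 ran from 0% to 43.6% and i9 from 1.12% to 48.1%. The distance explained below was 49.3 points within groups and 46.1 points between groups. Given the gene counts, its isoform counts had a chi-square per degree of freedom of 50.2 among replicates, the highest of the 80 genes. This value is a ratio of variance to counting noise, and it grows with the counts as well as with the spread.

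TRINITY_DN187780_c4_g3, with 7 isoforms, was of the same kind. Its isoform i7 held 13.0%, 31.3% and 25.4% in recovery, 22.9%, 45.6% and 38.3% in sustained, 69.2%, 34.9% and 20.4% in acute and 45.4%, 18.4% and 52.4% in control libraries. Isoform i9 led only in recovery replicate 1, with 34.8%, and held at most 11.7% elsewhere. TRINITY_DN188423_c0_g5 changed its leading isoform among 4 candidates at counts of 6 to 90. TRINITY_DN181580_c2_g5 had the largest distances of all, but it had at most 2 counts in 8 libraries, so its shares there carry no information.

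To compare replicates with groups, the distance between 2 libraries was taken per gene as the share of counts, in percentage points, that would have to move to another isoform. Averaged over the 80 genes it was 18.3 points between libraries of different groups and 18.8 points within groups. Without control replicate 2 it was 16.6 points between and 17.0 points within. Libraries of different groups were farther apart than replicates in 29 of 80 genes (36.25%) and in 42.5% of the 6967 others. The means of these others were 10.7 points between and 10.8 points within, but 5496 of them had only 2 isoforms. The 219 others with 4 isoforms had means of 15.3 points between and 15.6 points within. The 4 steadiest genes within groups were TRINITY_DN168545_c1_g2 at 2.52, TRINITY_DN173890_c3_g3 at 4.21, TRINITY_DN183316_c0_g1 at 6.11 and TRINITY_DN175896_c1_g1 at 6.71 points. In the last, i1 held 64.0% to 78.5%.

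The spread among replicates exceeded counting noise in nearly every gene. The chi-square per degree of freedom of isoform counts within groups had a median of 4.20 over the 80 genes, with a range from 1.62 to 50.2, and was above 2 in 77 genes (76 without control replicate 2). The median in the other genes was 3.50, and 80.3% of them were above 2, against 96.2% of the 80 genes. The 219 others with 4 isoforms came close, with a median of 4.03 and 92.7% above 2. The ratio of the leading pair of isoforms was set beside the gene total over all 12 libraries, without removing counting noise. Its standard deviation over libraries had a median of 0.635 on the log2 scale, against 0.355 for the total. It was the larger in 66 of 80 genes (82.5%, against 89.5% of the others). A ratio of 2 counts carries more counting error than their sum, so these values cannot show that the balance is less stable than the total.

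Control replicate 2, the smallest library, stood apart in its isoform shares. Its mean distance to the other 11 libraries was 26.8 points over the 80 genes, whereas the other libraries had 16.5 to 18.8 points. In the other genes it was 15.3 points, against 9.83 to 11.6 points. Of 400 isoform shares that could be ranked, 40.8% were the highest or the lowest of the 12 in control replicate 2 (40.2% in the other genes). The share was 9.50% to 20.8% in the other libraries. Control replicate 2 had 8659487 counts outside the most abundant transcript, against 14995732 to 23838612 in the others. These distances and extremes were not taken at equal depth, and how much of the gap came from depth was not tested. Of 37 isoforms that had a count of 0 in 1 library alone, 20 were at 0 in control replicate 2. For 7 of them the shares elsewhere gave an expected count of 10 or more. Those 7 were 1.71% of the isoforms of the 80 genes, against 0.557% (87 isoforms) in the other genes. In the other genes 495 isoforms were at 0 in control replicate 2 alone, against 10 to 88 in each other library. The excess in this library was thus not particular to the 80 genes.

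Some of the missing isoforms were leading ones. TRINITY_DN189922_c4_g4 and TRINITY_DN185994_c1_g13 are named because of these values. In TRINITY_DN189922_c4_g4 isoform i4 held 38.7% to 57.6% in 11 libraries and 0 of 104 counts in control replicate 2, which allows a share of up to 2.88% for TRINITY_DN189922_c4_g4_i4. Isoform i2 of the same gene held 27.9% to 42.3% elsewhere and was also at 0 there, and i7 held 68.3% there, against 8.02% to 16.9% in the other libraries. In TRINITY_DN185994_c1_g13 isoform i8 held 68.3% to 86.2% elsewhere and 0 of 34 counts in control replicate 2, with a limit of 8.82% for TRINITY_DN185994_c1_g13_i8, and the gene count was 382 to 1482 elsewhere. Isoform i2 of TRINITY_DN188326_c2_g5 held 39.0% to 73.6% elsewhere and 0 of 62 counts there, with a limit of 4.84% for TRINITY_DN188326_c2_g5_i2. In TRINITY_DN165259_c6_g1 all 22 counts of that library fell on i5 (TRINITY_DN165259_c6_g1_i5, lower bound of the 95% Wilson interval 85.1%), which held 22.1% to 56.5% elsewhere. Where 3 control values are given below, that of control replicate 2 is the second. Leaving out this library gave 0 calls among the 80 genes and their isoforms in edgeR's tests of every comparison. Over all features, the same fits called 1 of 33949 gene totals and 1 of 42640 transcript levels in acute minus control. They also called 1 transcript level in sustained minus acute, and 0 genes for usage in any comparison.

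**Figure D3:**
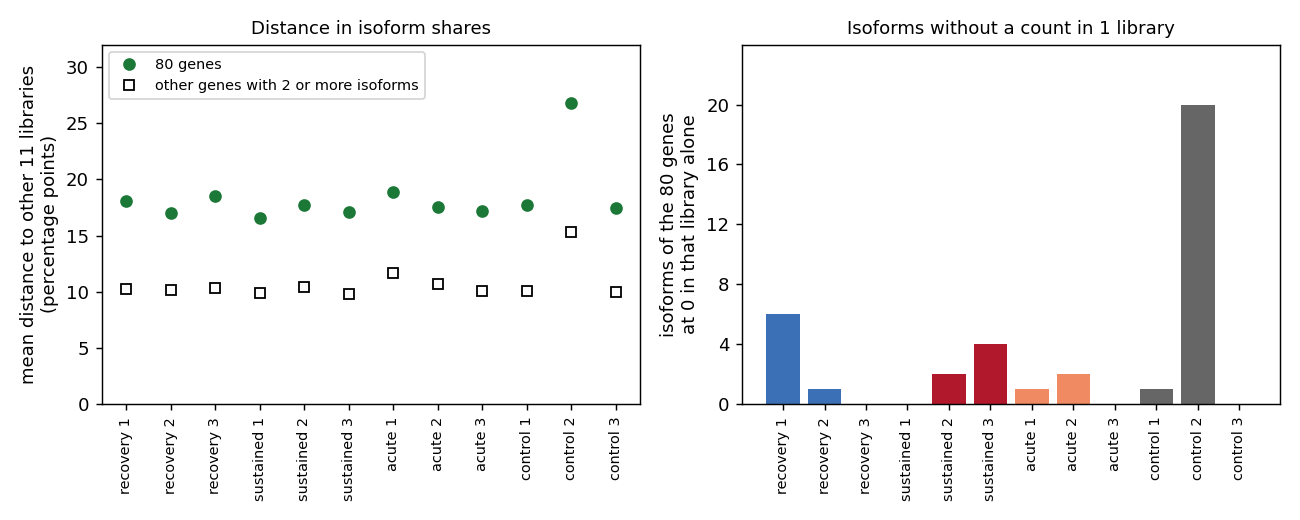
Left, mean distance in isoform shares from each library (horizontal axis) to the other 11 (vertical axis, percentage points) for the 80 genes (filled circles) and for the other genes with 2 or more isoforms (open squares). Right, number of isoforms of the 80 genes with a count of 0 in that library alone. Control replicate 2 has the largest distance, 26.8 points, and the most such isoforms, 20.

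Isoform usage was then tested in 6 comparisons with edgeR's quasi-likelihood fit, which asks whether an isoform's log2 difference departs from that of its gene. In each comparison, 0 of the 80 genes and 0 of their 372 tested isoforms passed at a Benjamini-Hochberg adjusted p under 0.05. The share called was 0.0% of all 6637 genes and 0.0% of all 14824 isoforms tested. The other 38 isoforms had too few counts to be tested. Limma's usage test and 2 models of the shares themselves also called 0 genes in every comparison. In acute minus control, limma gave an unadjusted p under 0.05 to 2.29% of all genes. The models of the shares gave one to 3.01% and 3.92%. EdgeR's usage test gave one to only 0.422% there, and to at most 0.738% in any of the 6 comparisons. It was thus the most cautious of these tests, and an isoform that it did not call may still differ. The 3 genes with the smallest p are given for each comparison below, and such a choice favours large differences.

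Acute libraries were set against control libraries to ask what 24 h of warming did to the isoforms. In TRINITY_DN175675_c1_g12 isoform i10 held 12.3%, 27.9% and 20.3% in acute and 2.47%, 0% and 8.47% in control libraries, with no overlap. The 0% was that of control replicate 2, and the other controls were also below the acute values. Its gene counts were low, at 16 to 81 in these libraries. In TRINITY_DN188901_c1_g4 isoform i10 held 5.50%, 6.05% and 6.37% in acute and 8.46%, 26.0% and 4.05% in control libraries, where the high value was that of control replicate 2. In TRINITY_DN181590_c4_g2 isoform i8 held 50.9%, 33.0% and 29.5% in acute and 17.9%, 0% and 21.2% in control libraries, and the 0% was again in control replicate 2. The acute values exceeded the other controls too. None was called, with an adjusted p of 1 for each in edgeR's usage test. At an unadjusted p under 0.05 there were 0 of the 80 genes, against 0.422% of all genes, and 5 of the 372 isoforms, against 0.634% of all isoforms. The shares did not overlap in 19 isoforms that were higher and 12 that were lower in acute libraries, 8.33% of 372, against 7.56% of all isoforms.

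Sustained libraries against control libraries addressed the whole exposure at 17 °C. TRINITY_DN189753_c2_g4 had the smallest p, and its isoform i2 held 23.7%, 20.4% and 20.7% in sustained and 5.55%, 6.45% and 11.3% in control libraries. All 3 sustained libraries lay above the control libraries. In TRINITY_DN175675_c1_g12 isoform i10 held 13.2%, 34.0% and 3.77% in sustained libraries and overlapped with the control values above. In TRINITY_DN168541_c3_g6 isoform i4 held 11.8%, 11.3% and 10.6% in sustained and 25.3%, 36.7% and 19.0% in control libraries, without overlap, the highest value being that of control replicate 2. None passed, with an adjusted p of 1 for each in edgeR's usage test, and 2 of the 80 genes had an unadjusted p under 0.05, against 0.512% of all genes, and 10 of the 372 isoforms, against 0.816% of all isoforms. Shares without overlap were found in 18 isoforms that were higher and 17 that were lower in sustained libraries, 9.41% of 372, against 10.3% of all isoforms.

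Recovery libraries against control libraries asked what remained after a day back at 14 °C. TRINITY_DN189753_c2_g4 again had the smallest p. Its isoform i2 held 27.1%, 33.8% and 24.5% in recovery libraries, above all 3 control values, and i9 held 27.1%, 22.2% and 26.3% in recovery against 41.6%, 61.8% and 38.9% in control libraries, where the highest value was that of control replicate 2 and the other controls also lay above the recovery values. In TRINITY_DN182226_c3_g11 isoform i1 held 0%, 1.49% and 4.14% in recovery and 5.56%, 37.3% and 4.79% in control libraries, and the large control value was that of control replicate 2. In TRINITY_DN188901_c1_g4 isoform i10 held 6.30%, 7.29% and 6.56% in recovery libraries, within the range of the control values above. The adjusted p was 1 for each in edgeR's usage test. For i2 of TRINITY_DN189753_c2_g4, limma on the ratio of the isoform to the rest of its gene gave an adjusted p of 0.35. In edgeR's usage test 2 of the 80 genes had an unadjusted p under 0.05, against 0.738% of all genes. So did 4 of the 372 isoforms, against 0.796% of all isoforms. Shares did not overlap in 13 isoforms that were higher and 17 that were lower in recovery libraries, 8.06% of 372, against 9.59% of all isoforms.

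Recovery libraries were set against sustained libraries to ask what the return to 14 °C did. In TRINITY_DN176812_c4_g2 isoform i12 held 0%, 12.5% and 7.42% in recovery and 1.37%, 1.76% and 1.55% in sustained libraries, so the recovery values lay on both sides. In TRINITY_DN189425_c0_g8 isoform i7 held 18.8%, 4.30% and 11.1% in recovery and 3.94%, 3.70% and 0% in sustained libraries. These values did not overlap, but the counts were 0 to 17. The 0% was 0 of 60 counts in sustained replicate 3, where a limit of 3 counts exceeds the recovery value of 4.30%. In TRINITY_DN186984_c0_g12 isoform i4 held 7.02%, 9.89% and 5.98% in recovery and 9.83%, 26.4% and 19.2% in sustained libraries, with a slight overlap. The adjusted p was 1 for each in edgeR's usage test, and 1 of the 80 genes had an unadjusted p under 0.05, against 0.422% of all genes, and 3 of the 372 isoforms, against 0.452% of all isoforms. Shares did not overlap in 15 isoforms that were higher and 20 that were lower in recovery libraries, 9.41% of 372, against 10.1% of all isoforms.

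Sustained libraries against acute libraries set long against short warming at the same final temperature. Isoform i12 of TRINITY_DN176812_c4_g2 held 1.26%, 21.5% and 13.7% in acute libraries, which overlapped with the sustained values just given. In TRINITY_DN182785_c3_g2 isoform i3 held 14.1%, 19.8% and 29.6% in sustained and 10.1%, 3.81% and 2.42% in acute libraries, without overlap. Isoform i7 of TRINITY_DN189425_c0_g8 held 14.8%, 29.2% and 4.62% in acute libraries, all above the sustained values. At the 0 of 60 counts in sustained replicate 3, a limit of 3 counts exceeds the 4.62%. The adjusted p was 1 for each in edgeR's usage test. Of the 80 genes, 2 had an unadjusted p under 0.05, against 0.618% of all genes, and 6 of the 372 isoforms, against 0.769% of all isoforms. Shares did not overlap in 15 isoforms that were higher and 21 that were lower in sustained libraries, 9.68% of 372, against 10.9% of all isoforms.

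The last comparison was the interaction of both temperatures, which asks whether the difference between ending at 17 °C and ending at 14 °C depends on the first 4 days. TRINITY_DN189425_c0_g8 had the smallest p, 0.0158 unadjusted and 1 adjusted in edgeR's usage test. Its isoform i7 averaged 11.4% ± 7.27 in recovery, 2.55% ± 2.21 in sustained, 16.2% ± 12.4 in acute and 3.12% ± 1.73 in control libraries (SD, n = 3 each). TRINITY_DN176812_c4_g2 with i12 and TRINITY_DN190245_c2_g6 with i2 followed, both with an adjusted p of 1 in the same test. In TRINITY_DN190245_c2_g6 isoform i2 averaged 3.01% ± 1.67 in recovery, 7.54% ± 1.60 in sustained, 4.21% ± 2.92 in acute and 8.98% ± 2.65 in control libraries. Of the 80 genes, 1 had an unadjusted p under 0.05, against 0.482% of all genes, and 5 of the 372 isoforms did, against 0.526% of all isoforms.

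TRINITY_DN189753_c2_g4 had the largest excess of the distance between groups over that within groups among the 80 genes, at 17.2 points between and 9.90 points within. Isoform i2 averaged 28.5% ± 4.77 in recovery and 21.6% ± 1.78 in sustained libraries, against 9.93% ± 4.47 in acute and 7.76% ± 3.08 in control libraries (SD, n = 3 each). All 6 libraries that had spent the first 4 days at 17 °C lay above the 6 that had spent them at 14 °C. The gene is described for its small p and large distance, and how many other isoforms separate in this way was not counted. Isoform i9 ran the other way, at 25.2% ± 2.60 in recovery and 33.6% ± 4.27 in sustained libraries, against 38.5% ± 1.09 in acute and 47.4% ± 12.5 in control libraries, the last including the 61.8% of control replicate 2. Isoform i5 stayed between 22.0% and 34.5% and overlapped across all groups. The acute values of i6, 11.4% to 12.8%, lay above those of the other groups, and i6 was at 0.538% in control replicate 2. The sustained values of i3, 5.80% to 7.39%, lay below the control values of 9.14% to 11.2%.

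**Figure D4:**
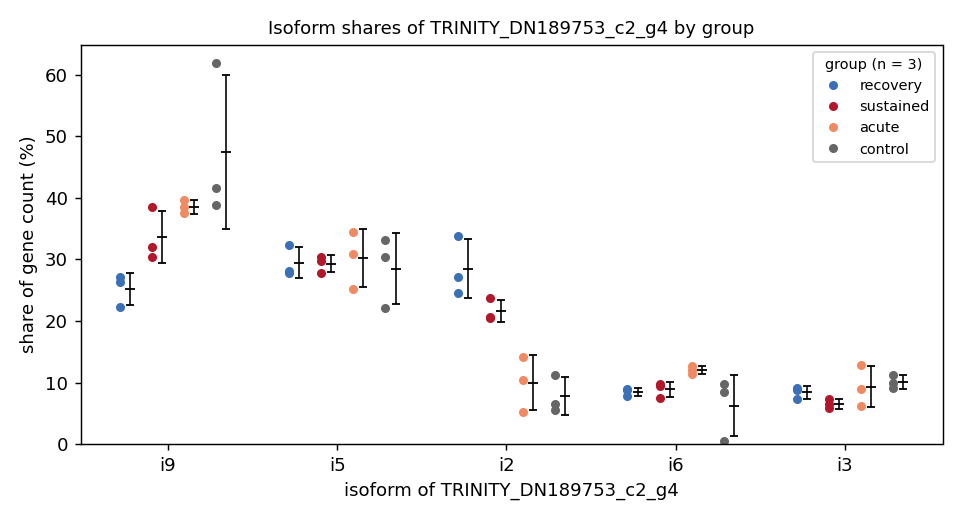
Share of the gene count (vertical axis, percent) of each isoform of TRINITY_DN189753_c2_g4 (horizontal axis) in recovery, sustained, acute and control libraries. Points are libraries, and the bars beside them are the mean and SD of 3 libraries. Isoform i2 lies at 20.4% to 33.8% in recovery and sustained libraries and at 5.25% to 14.2% in acute and control libraries.

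A comparison of both groups with first days at 17 °C against both groups with first days at 14 °C was added after these values were seen. TRINITY_DN189753_c2_g4 did not pass in it. The gene's unadjusted p was 0.00086 and its adjusted p was 1 in edgeR's usage test, where 0.0% of 6637 genes were called. Isoform i2 had a log2 usage difference of 0.99 (adjusted p = 0.85, edgeR). When the gene count entered as an offset the log2 difference was 1.46 (adjusted p = 0.18, edgeR), and in limma on the ratio of the isoform to the rest of its gene the adjusted p was 0.323. Over all these models and over leaving out each library in turn, the lowest adjusted p of any isoform of the 80 genes was 0.13.

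The level of isoform i2, as distinct from its share, was tested as well. The log2 level difference of sustained minus control was 2.17 ± 0.48 (SE, adjusted p = 0.979, edgeR's quasi-likelihood test). DESeq2 called it, at a log2 difference of 2.18 (adjusted p = 0.0236), where it called 0.0335% of all transcripts. The gene total was at 40.6, 54.1 and 54.6 CPM in sustained against 32.9, 21.5 and 32.3 CPM in control libraries and was called by neither tool. Recovery minus control gave i2 a log2 level difference of 2.04 ± 0.48 (SE, adjusted p = 1, edgeR).

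TRINITY_DN191738_c1_g17, picked after its values were seen, had an isoform with a similar order of groups. Isoform i2 held 42.5%, 39.3% and 34.7% in recovery, 31.1%, 32.4% and 33.6% in sustained, 22.7%, 29.4% and 32.7% in acute and 20.9%, 26.3% and 22.6% in control libraries. The recovery libraries were the 3 highest, and the sustained and acute libraries overlapped. With the gene count as an offset its log2 difference of recovery minus control was 0.75, with an adjusted p of 0.36 in edgeR.

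Gene totals were tested apart from the shares, with the counts of all isoforms of a gene added. In each of the 6 comparisons edgeR's quasi-likelihood test called 0 of the 80 genes, and 0.0% of all 32886 genes. At an unadjusted p under 0.05 there were 2 of the 80 genes in acute minus control (3.93% of all genes), 6 in sustained minus control (4.53%), 4 in recovery minus control (3.13%), 3 in recovery minus sustained (2.08%), 4 in sustained minus acute (5.14%) and 3 in the interaction (2.83%). The levels of single isoforms gave 0 of 372 in every comparison, and 0.0% of all 40943 transcripts, in the same test. Their counts at an unadjusted p under 0.05 were 20 in acute minus control (3.9% of all transcripts), 26 in sustained minus control (4.44%), 18 in recovery minus control (3.18%), 10 in recovery minus sustained (2.14%), 14 in sustained minus acute (4.99%) and 13 in the interaction (2.89%). The median log2 difference of the totals lay between -0.08 and 0.05 over the comparisons, against -0.02 to 0.02 for all genes.

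TRINITY_DN164254_c1_g3, with 4 isoforms, had the smallest p of a total among the 80 genes in 3 comparisons. It was at 3.47, 3.73 and 3.46 CPM in recovery libraries, against 5.96, 7.15 and 7.22 CPM in sustained and 6.24, 8.78 and 5.43 CPM in control libraries, with acute libraries at 6.55 to 7.80 CPM. The 3 recovery libraries were below all 9 others. The log2 difference was -0.94 ± 0.24 (SE) for recovery minus sustained (adjusted p = 1, edgeR) and -0.94 ± 0.24 for recovery minus control (adjusted p = 0.999, edgeR). In the interaction its log2 value was 0.88 ± 0.34 (SE, adjusted p = 0.999, edgeR). Its leading isoform i10 held 43.1% to 86.5%, both extremes being in recovery libraries, and i8 equalled it at the lower one.

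TRINITY_DN184103_c4_g2 had the smallest p among totals that were higher than control in sustained and in recovery libraries. It was at 18.6, 38.8 and 27.4 CPM in sustained and 17.5, 15.7 and 34.1 CPM in recovery libraries, against 7.35, 17.1 and 14.5 CPM in control libraries. The log2 difference was 1.15 ± 0.36 (SE) for sustained minus control (adjusted p = 0.969, edgeR) and 0.81 ± 0.36 for recovery minus control (adjusted p = 0.999, edgeR). Isoform i4 held 32.4% to 46.2% and led in all libraries but control replicate 2, where i3 led with 43.2%.

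EdgeR called none of the other totals with the smallest p in a comparison and direction, and most overlapped between the groups compared. In acute minus control TRINITY_DN189753_c2_g4 differed by 0.70 ± 0.30 on the log2 scale (SE), at 70.0, 42.7 and 31.5 CPM in acute and 32.9, 21.5 and 32.3 CPM in control libraries, the lowest being control replicate 2. TRINITY_DN164927_c2_g1 differed by -0.76 ± 0.36 in the same comparison. TRINITY_DN180730_c0_g1 differed by -0.80 ± 0.34 in sustained minus control and by 0.83 ± 0.34 in recovery minus sustained, where the lowest recovery library and the highest sustained library were nearly level. In sustained minus acute TRINITY_DN189863_c1_g5 differed by 0.52 ± 0.25, with all sustained values above the acute ones. TRINITY_DN187780_c4_g3 differed by -1.64 ± 0.55, at 2.01, 6.27 and 3.67 CPM in sustained and 20.1, 5.41 and 12.2 CPM in acute libraries. In the interaction the negative value with the smallest p was that of TRINITY_DN178876_c4_g3, whose libraries are described next.

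A few of the 80 genes varied by orders of magnitude among libraries of the same group. The total spanned more than 10-fold over the 12 libraries, after adding 0.2 CPM, in 5 genes (6.25%, against 6.24% of all 26378 genes). TRINITY_DN178876_c4_g3 spanned 255-fold, TRINITY_DN170876_c1_g5 spanned 140.5-fold and TRINITY_DN181580_c2_g5 spanned 113-fold. These 3 were high in the same 4 libraries, which belonged to 3 groups. TRINITY_DN170876_c1_g5 was at 76.3 CPM in recovery replicate 2, 59.1 and 114 CPM in acute replicates 1 and 3 and 122 CPM in control replicate 2, against 0.667 to 1.01 CPM in the other 8 libraries. TRINITY_DN181580_c2_g5 was at 21.7, 3.93, 22.4 and 15.6 CPM in those 4 libraries, against at most 0.0839 CPM in the others. TRINITY_DN178876_c4_g3 was at 5.89, 50.8, 25.3 and 7.85 CPM, against at most 1.47 CPM. Over all 26378 genes, 287 were higher in each of these 4 libraries than in any other, 79 of them by more than 2-fold and 22 by more than 10-fold.

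**Figure D5:**
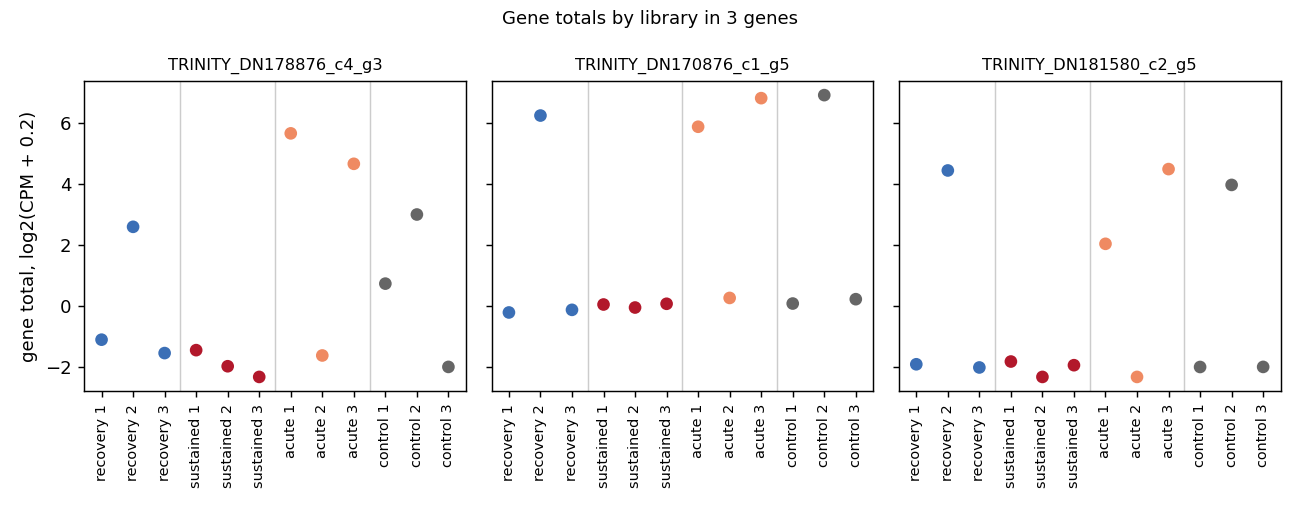
Gene total (vertical axis, log2 of CPM + 0.2) of 3 of the 80 genes in each library (horizontal axis, recovery, sustained, acute and control, 3 libraries each, separated by grey lines). Recovery replicate 2, acute replicates 1 and 3 and control replicate 2 are high in all 3 genes, and the sustained libraries are low in all 3.

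The sustained group had none of the 4 libraries, so these genes gave large differences between groups. For TRINITY_DN178876_c4_g3 DESeq2 called the total of sustained minus acute, at a log2 difference of -8.37 (adjusted p = 0.0497), where it called 0.0657% of all genes. It also called the level of isoform i2 of this gene, at -8.19 (adjusted p = 0.0347), where it called 0.0669% of all transcripts. The counts of i2 were 4, 1 and 0 in sustained and 949, 2 and 320 in acute libraries, so acute replicate 2 was as low as the sustained libraries. EdgeR's quasi-likelihood test did not call either. The shares of the same gene differed among the high libraries, since i2 held 89.1% in recovery replicate 2, 95.4% and 74.6% in acute replicates 1 and 3 and 11.8% in control replicate 2, where i9 held 45.6%. In TRINITY_DN170876_c1_g5 isoform i10 held 34.4% in recovery replicate 2, 87.7% and 61.4% in acute replicates 1 and 3 and 55.6% in control replicate 2.

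No isoform of the 80 genes belonged to one group. Of the 410 isoforms, 330 had counts in all 12 libraries and 80 (19.5%, against 9.87% of isoforms in the other genes) were at 0 in at least 1 library. A count in all 3 libraries of one group and in none of the other 9 was found for 0 isoforms. A count of 0 in all 3 libraries of one group with counts in the other 9 was likewise found for 0. Among 15624 isoforms of the other genes the first pattern was also found for 0. The second was found there for 1 in acute, 2 in control and 0 in the remaining groups. The absence is thus not particular to the 80 genes. A share of 10% or more in 1 library and of 0% in another was seen in 66 isoforms (16.1%, against 8.67% in the other genes). The reverse held for a share that spanned 50 points or more, seen in 23 isoforms (5.61%, against 14.3%). These patterns were not compared at an equal number of isoforms per gene.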

How the data were processed

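The authors deposited 1 table of raw read counts for the assembled transcripts. Its values are whole, library sums differ, and all 12 columns were used. Total RNA of whole adults was made into stranded poly(A) libraries and sequenced as paired-end reads, as the labels' protocols state. Trim Galore 0.4.1, HTSeq 0.6.1, TopHat2 2.1.1 and edgeR appear in the submitters' processing notes, with no order or role. How the transcripts were assembled and reads shared among isoforms was not given in the sources used here. Replicates were moved between temperatures at random, per the series design, but the labels do not say whether each was a vessel of its own, so p-values measure only the spread between these libraries, which may be partly technical. Replicate numbers follow the order of deposit. The chi-square per degree of freedom between libraries of a group was 25.4 to 227, so no pair agreed within sampling noise over all transcripts together. It included the most abundant transcript, which held 0.0039% to 53.1% of a library's counts. How much of the value came from that transcript was not tested.

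The 80 genes, the lists and the tests were chosen with earlier results of these data known. The same 80 genes result from full column totals or from ties in numeric order, and 68 of them from a minimum of 5 CPM. Gene lists planned for splice-rich genes, splicing regulators and heat shock proteins were not tested, because no table pairs identifiers with names. Named genes are those with the most isoforms, the highest level, the highest and lowest effective number (inverse Simpson index of the shares), the largest and smallest distances within groups, a leading isoform that differs between groups, and the smallest p for usage and, in each direction, for the total in each comparison. Exceptions are marked as chosen after their values were seen.

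Counts were tested with edgeR 4.0.16 in R 4.3.3 (robust quasi-likelihood fit, TMM factors from 0.634 to 1.34, default filter with minimum count 10 and minimum total 15, all 12 libraries in one fit, 8 residual degrees of freedom). Usage was tested with diffSpliceDGE and Simes p-values per gene, and totals with counts added by gene. P-values were adjusted over all features tested. A standard error is the absolute log2 difference over the root of the F statistic. Alternatives were DESeq2 1.42.0, limma 3.58.1, RLE factors, library totals, other filters, only the groups compared and leaving out libraries. Added after the data were seen were both models of the shares, leaving out control replicate 2 with acute replicate 3, and the comparison by first days. The tests were also run on counts simulated independently for each transcript, with no library set apart in its shares. The outcome of those runs is not used here. Some shares of single libraries are given with 95% Wilson intervals, or for a count of 0 with the limit of 3 counts. The other shares are given without an interval. Python 3.11.15 with SciPy 1.17.1, NumPy 2.4.6, pandas 2.3.3 and matplotlib 3.10.9 gave the summaries and plots.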

Additional observations from a re-analysis of the deposited data

How the results depend on the processing

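Of 465 counts of calls recomputed for the 80 genes and their isoforms over all settings, 463 were 0, including all 252 that left out 1 library. With DESeq2 there was 1 gene total called in sustained minus acute, against 0 with edgeR, and 2 isoforms were called in the test of transcript levels over the 5 pairs, against 0. Among the 80 genes and their isoforms, the lowest adjusted p in any usage test was 0.13, and the lowest of a total in edgeR or limma was 0.436. The median share of the leading isoform was 43.1%. It was 45.9% over isoforms that passed the filter and 41.1% to 43.8% when each library was left out. With libraries thinned to the smallest full total it was 42.2%. Such thinning does not equalise the counts outside the most abundant transcript. The median effective number was 3.11, against 3.23 from counts added over a group, and 3.05 to 3.17 when each library was left out. The median distance between groups was 17.2 points, against 8.61 points from counts added over a group, and 15.05 to 17.84 points when each library was left out, the lowest being without control replicate 2. No paired analysis was possible because the labels carry no replicate numbers shared between groups. Depth limits the shares most in the 21 genes with fewer than 50 counts in some library.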
